A study of Mus musculus with 12 samples.

Results

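The genes described here are 28 genes of cholesterol and fatty acid synthesis, out of 24538 genes in the count tables: 17 enzymes that carry acetyl units to cholesterol, the regulators Srebf1, Srebf2 and Insig1, the sterol carrier Stard4, and 7 enzymes that supply acetyl-CoA or build, lengthen or desaturate fatty acids. They were chosen by symbol, and each of the 28 symbols was found in the tables of both cell populations. RNA was sequenced from LSK cells, the bone marrow fraction named for low lineage markers, Sca-1 and Kit, which is enriched for blood stem cells and early progenitors, and from a sorted population that the sample descriptions call MPP (a usual short form of multipotent progenitor) and the sample titles call Lin. Each population was taken from mice labelled Tet2 KO, Tet2 Mut and wild type (WT), giving 6 groups: LSK KO, LSK Mut, LSK WT, MPP KO, MPP Mut and MPP WT. All mice were 10 weeks old and of a mixed 129/C57/B6 strain. Tet2 encodes an enzyme that oxidises methylated cytosine in DNA; by its title, the study addresses what Tet2 does apart from that catalysis. How the KO and Mut alleles were made, and in which cells, is not given in the sources used here. Every group is a single pool of marrow from 2 mice with 2 technical replicate libraries made from amplified RNA, so every SD, standard error (SE) and p-value below reflects how far repeat libraries differ, and none reflects how far mice differ.

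Cholesterol is built from acetyl-CoA through mevalonate, isoprenoid diphosphates, squalene and lanosterol, and fatty acids are built from the same acetyl-CoA through malonyl-CoA. The transcription factors SREBP-2 (from Srebf2) and SREBP-1 (from Srebf1) drive transcription of these enzymes. When sterols are scarce, the SREBP precursors leave the endoplasmic reticulum to be cut, and when sterols are plentiful, INSIG proteins (one of them from Insig1) hold them there. Dividing cells need both products for new membrane, and isoprenoids from the same route anchor small GTPases in membranes.

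SREBPs bind sterol response elements (SRE), usually beside CCAAT boxes bound by NF-Y, and promoter sequence from RefSeq (build GRCm38.p6) was available for 22 of the 28 genes, as a window of 250 bases before to 50 bases after each start. The letters CCAAT, on either strand, were in the windows of 20 of these 22 genes, against 41.1% of 27025 genes. The GC box letters GGGCGG were in 18 of 22, against 38.2% of genes. The SRE letters TCACNCCAC were in the Hmgcs1 window alone, against 1.44% of genes, and the shorter CACNCCA, which lies inside them, was in Hmgcs1, Insig1, Msmo1 and Srebf2, against 20.6% of genes. The E-box letters CACGTG, which SREBPs can also bind, were in Dhcr7, Hsd17b7, Insig1 and Sc5d, against 8.09% of genes. Stretches from 3 of these windows are printed because the genes stand for the sterol branch (Hmgcs1), the regulators (Srebf2) and the fatty acid branch (Fasn). Capitals mark TCACNCCAC or CACNCCA and CCAAT on either strand, so CCAAT also appears as ATTGG, and each sequence is read 5′ to 3′ along its gene. The stretches are chr13:119690151-119690350 on the plus strand, chr15:82147069-82147180 on the plus strand and chr11:120824548-120824747 on the minus strand.
Hmgcs1: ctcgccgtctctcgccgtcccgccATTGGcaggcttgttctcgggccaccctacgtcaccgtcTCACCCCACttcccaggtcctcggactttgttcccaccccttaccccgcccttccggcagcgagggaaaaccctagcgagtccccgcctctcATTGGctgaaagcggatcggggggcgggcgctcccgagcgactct
Srebf2: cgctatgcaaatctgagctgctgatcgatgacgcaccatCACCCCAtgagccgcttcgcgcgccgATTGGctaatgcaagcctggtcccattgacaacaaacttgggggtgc
Fasn: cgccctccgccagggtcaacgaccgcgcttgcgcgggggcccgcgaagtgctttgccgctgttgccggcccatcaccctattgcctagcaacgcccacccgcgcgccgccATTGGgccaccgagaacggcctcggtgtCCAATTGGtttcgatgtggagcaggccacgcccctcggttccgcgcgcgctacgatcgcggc
In this stretch Fasn had CCAAT letters and no match to either SRE spelling; a match or its absence is a description of letters and not of binding.

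Libraries held 9181027 to 23532847 gene counts, so 3 counts, the most that a count of 0 allows at 95% confidence, corresponded to 0.135 to 0.317 CPM (counts scaled to TMM library size) in a library. Tet2 stood at 29.2 and 31.7 CPM in LSK KO libraries and at 43.5 and 44.4 CPM in LSK Mut libraries, against 87.3 and 62.7 CPM in LSK WT libraries. It stood at 34.9 and 34.9 CPM in the libraries labelled MPP KO and at 40.2 and 37.4 CPM in MPP Mut libraries, against 39.6 and 29.4 CPM in MPP WT libraries, so Tet2 counts did not separate the libraries labelled MPP KO from MPP WT, and which part of the gene was altered is not given in the sources used here. The 9 stem and progenitor markers summed to 3721, 3293 and 3337 CPM on average in LSK KO, Mut and WT, and to 829, 1154 and 978 CPM in MPP KO, Mut and WT. The 6 neutrophil markers summed to 43.6, 55.5 and 134 CPM in LSK KO, Mut and WT, and to 2301, 1092 and 2108 CPM in MPP KO, Mut and WT. The LSK WT libraries stood apart from every other pair: their log2 CPM values correlated at 0.797, against 0.941 to 0.957 in the other groups. ERCC spike-in RNA took 0.0822% to 0.229% of counts in LSK libraries and 3.16% to 5.15% in MPP libraries.

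The 17 sterol enzymes together summed to 452 ± 32.9 CPM in LSK KO, 508 ± 16.8 CPM in LSK Mut and 387 ± 7.31 CPM in LSK WT, and to 516 ± 9.53, 571 ± 27.7 and 575 ± 49.5 CPM in MPP KO, Mut and WT (SD, n = 2 libraries each). The 7 fatty acid genes, whose sum is mostly Acly, Fasn and Scd2, came to 884 ± 8.55, 818 ± 175 and 733 ± 84.5 CPM in LSK KO, Mut and WT. They came to 695 ± 28.8, 991 ± 62.9 and 887 ± 18.7 CPM in MPP KO, Mut and WT (SD, n = 2 libraries each). The LSK Mut libraries, at 941 and 694 CPM, lay on either side of the LSK KO and LSK WT means. In bulk samples such as these, fewer cells of a type and less RNA per cell cannot be told apart.

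**Figure D1:**
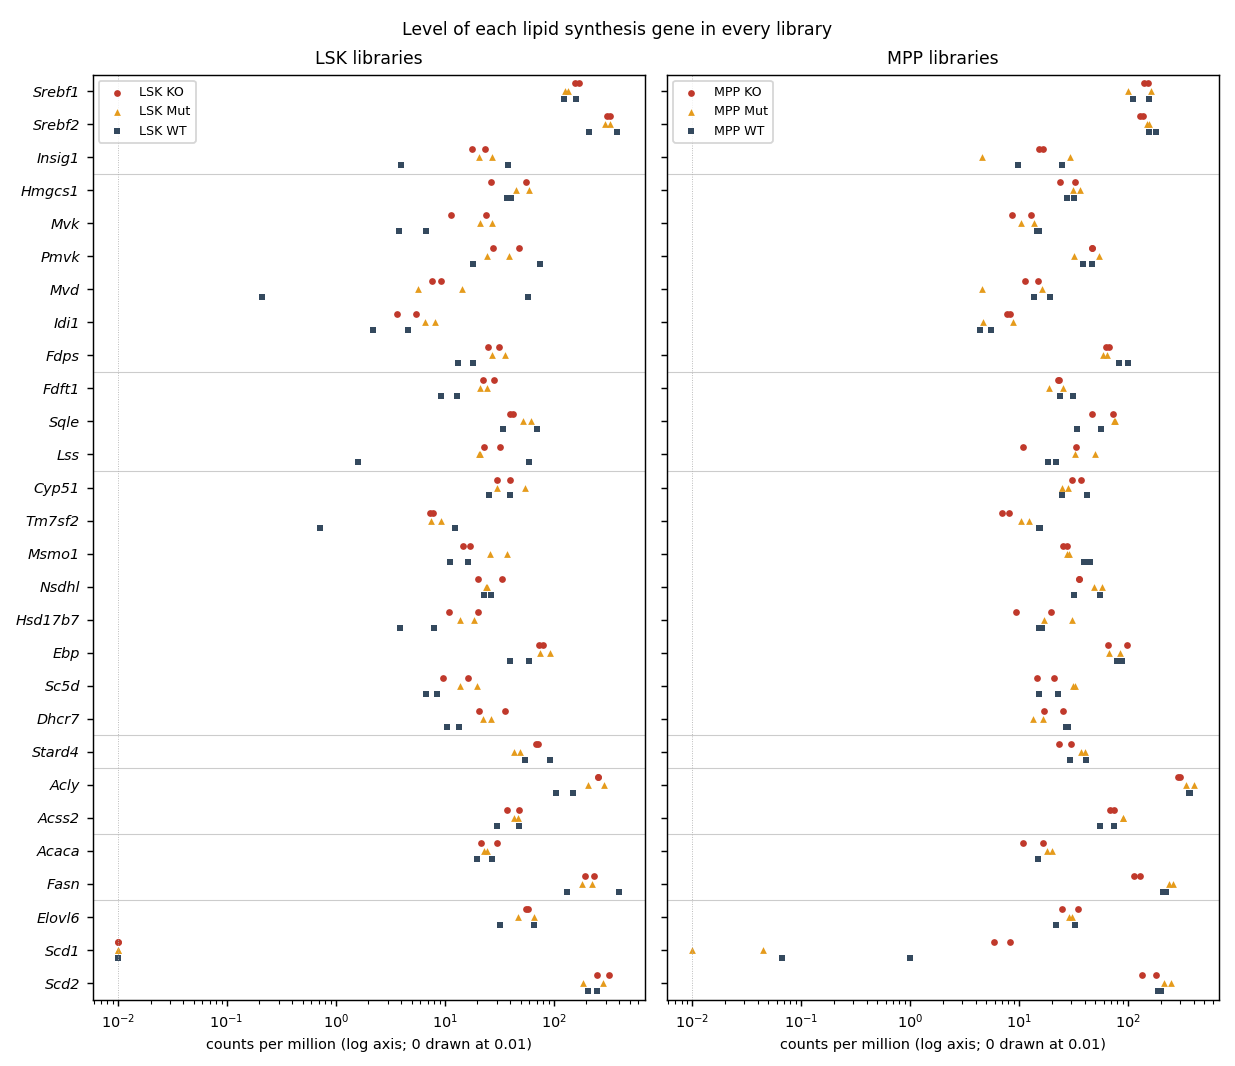
CPM (log axis) of the 28 genes in each library, with LSK libraries in the left panel and MPP libraries in the right, colours for KO, Mut and WT, genes ordered by role, and a count of 0 drawn at 0.01. Srebf2, Acly, Scd2 and Fasn lie above 100 CPM in every library, Scd1 is at 0 in all 6 LSK libraries, and the pair of LSK WT points spreads widest for Mvd and Lss.

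Srebf2 had 307 and 329 CPM in KO, 327 and 298 CPM in Mut and 214 and 381 CPM in WT in LSK cells. In MPP cells Srebf2 had 136 and 129.7 CPM in KO, 155 and 151 CPM in Mut and 155 and 179.9 CPM in WT. Every LSK library was above every MPP library. Srebf1, whose product acts mainly on fatty acid genes, had 172 and 159 CPM in LSK KO, 128 and 135 CPM in LSK Mut and 159 and 124 CPM in LSK WT, and 139 and 154, 164 and 99.8 and 156 and 110.4 CPM in MPP KO, Mut and WT. Of the comparisons made here, its libraries did not overlap in LSK KO against LSK Mut and in LSK KO against MPP KO, and LSK KO was the higher both times. Insig1, itself a sterol-regulated SREBP target, had 23.6 and 18.0 CPM in LSK KO and 27.3 and 20.7 CPM in LSK Mut, against 38.5 and 3.99 CPM in LSK WT. In MPP cells Insig1 had 15.4 and 16.8 CPM in KO, 29.2 and 4.54 CPM in Mut and 24.7 and 9.81 CPM in WT. In 3 groups the 2 Insig1 libraries differed more than the group means did.

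Among the mevalonate and isoprenoid enzymes, Hmgcs1, which makes HMG-CoA, had 41.2 ± 20.5, 52.6 ± 10.2 and 39.0 ± 2.35 CPM in LSK KO, Mut and WT and 28.1 ± 6.12, 33.9 ± 3.44 and 29.9 ± 3.36 CPM in MPP KO, Mut and WT (SD, n = 2 libraries each). Mvk, the kinase that phosphorylates mevalonate, had 23.9 and 11.5 CPM in LSK KO and 27.3 and 21.3 CPM in LSK Mut, against 3.80 and 6.70 CPM in LSK WT. Both LSK WT libraries were the lowest of the 12 for Mvk; MPP libraries lay between 8.68 and 15.3 CPM. Pmvk, the next kinase, averaged between 31.7 CPM in LSK Mut and 47.0 CPM in LSK WT, where its libraries had 75.8 and 18.3 CPM. Mvd, the decarboxylase that forms isopentenyl diphosphate, was counted 2 and 737 times in the LSK WT libraries, and between 101 and 260 times in the others. Idi1, the isomerase that makes dimethylallyl diphosphate, stayed under 10 CPM in all 12 libraries.
Fdps, which makes farnesyl diphosphate at the branch to cholesterol, prenylation and ubiquinone, had 31.5 and 24.8 CPM in LSK KO, 27.3 and 35.7 CPM in LSK Mut and 18.3 and 13.3 CPM in LSK WT. It had 66.9 and 63.2 CPM in MPP KO, 58.5 and 63.8 CPM in MPP Mut and 82.9 and 101 CPM in MPP WT. For Fdps the WT groups were both the lowest (LSK) and the highest (MPP) of the 6.

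Of the squalene steps, Fdft1 (squalene synthase) had 22.7 and 28.6 CPM in LSK KO and 24.2 and 21.2 CPM in LSK Mut, against 9.29 and 13.1 CPM in LSK WT, and MPP libraries had 18.9 to 31.5 CPM. Sqle, squalene epoxidase, had 46.9 and 73.4 CPM in MPP KO and 73.9 and 76.3 CPM in MPP Mut, against 34.2 and 56.8 CPM in MPP WT, and 42.0 and 40.1, 52.9 and 62.1 and 34.6 and 70.5 CPM in LSK KO, Mut and WT. Lss, which closes the sterol rings to give lanosterol, had 59.3 and 1.59 CPM in LSK WT, so its LSK WT mean describes neither library.
From lanosterol onward, Ebp, the sterol isomerase, had the highest level per kilobase of the 8 enzymes in each of the 6 groups, and averaged 77.0, 84.2 and 49.5 CPM in LSK KO, Mut and WT and 81.7, 75.4 and 83.8 CPM in MPP KO, Mut and WT. Msmo1, which oxidises the methyl groups to be removed, had 14.8 and 16.9 CPM in LSK KO, 37.6 and 26.3 CPM in LSK Mut and 16.5 and 11.2 CPM in LSK WT, and 27.7 and 25.6, 27.7 and 28.8 and 44.7 and 39.3 CPM in MPP KO, Mut and WT. Msmo1 was above both LSK KO and LSK WT libraries in LSK Mut alone, and was above both MPP KO and MPP Mut in MPP WT.
Cyp51, the lanosterol demethylase, averaged 35.0, 42.7 and 32.8 CPM in LSK KO, Mut and WT and 33.9, 26.4 and 33.6 CPM in MPP KO, Mut and WT, and its libraries overlapped between the LSK groups. Nsdhl, the decarboxylating dehydrogenase of the same step series, had 20.4 to 33.4 CPM across the LSK libraries and 57.9 and 48.4 CPM in MPP Mut. Hsd17b7, the reductase that follows it, had 20.2 and 11.0 CPM in LSK KO and 18.6 and 13.8 CPM in LSK Mut, against 7.92 and 3.91 CPM in LSK WT. Tm7sf2, a sterol reductase that overlaps in activity with Lbr, was counted 118 and 9 times in the LSK WT libraries and had 6.99 to 15.5 CPM in the other 10. The last enzymes, Sc5d and Dhcr7, had 8.55 and 6.70 and 10.6 and 13.6 CPM in LSK WT, their lowest group in each case.

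Stard4, which carries cholesterol between membranes, had 68.7 and 72.3 CPM in LSK KO, 43.6 and 49.3 CPM in LSK Mut and 93.2 and 54.9 CPM in LSK WT. It had 23.3 and 30.0 CPM in MPP KO, 36.8 and 40.0 CPM in MPP Mut and 41.3 and 29.6 CPM in MPP WT. Every LSK library was above every MPP library for this gene. Acly, which cuts citrate into cytosolic acetyl-CoA, had 253 and 255 CPM in LSK KO and 293 and 209 CPM in LSK Mut, against 150.2 and 105 CPM in LSK WT. In MPP cells Acly had 301 and 286 CPM in KO and 406 and 340.4 CPM in Mut, against 364 and 369.8 CPM in WT. Both LSK WT libraries were the lowest of the 12. Acss2, which makes acetyl-CoA from acetate, had 30.0 to 48.4 CPM in LSK libraries and 54.9 to 89.8 CPM in MPP libraries, with no overlap.
Fasn, the multi-domain synthase that builds palmitate, had 194 and 237 CPM in LSK KO, 227 and 182 CPM in LSK Mut and 132 and 398 CPM in LSK WT, and 114 and 129, 239 and 257 and 212 and 222 CPM in MPP KO, Mut and WT. Acaca, the carboxylase that makes malonyl-CoA, had 10.9 to 30.4 CPM over all 12 libraries. Elovl6, which lengthens palmitate, averaged 57.2, 57.0 and 49.1 CPM in LSK KO, Mut and WT and 29.7, 29.6 and 27.2 CPM in MPP KO, Mut and WT. Scd2, the desaturase that puts the first double bond into stearate and palmitate, had 325 and 253, 286 and 187 and 249.5 and 208 CPM in LSK KO, Mut and WT and 134 and 181, 249.6 and 213 and 203 and 189 CPM in MPP KO, Mut and WT.

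Levels of different genes were compared as CPM per kilobase of exon. In LSK KO the order began with Scd2 at 52.9 ± 9.37, Acly at 48.1 ± 0.194, Srebf2 at 44.3 ± 2.20, Ebp at 33.3 ± 2.09 and Srebf1 at 29.3 ± 1.66 CPM per kilobase (SD, n = 2 libraries each); the SD of Scd2 spans the means of Acly and Srebf2. In MPP KO, Acly led at 55.6 ± 1.98 CPM per kilobase and Ebp followed at 35.3 ± 10.1. Fasn had 19.7 ± 2.75 CPM per kilobase in LSK KO. Scd1, Acaca and Idi1 averaged at most 2.27 CPM per kilobase (Idi1) in the 6 groups.

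Repeat libraries differed most in LSK WT. A gene was compared between the 2 libraries of its group where it averaged at least 50 counts, with 0.1 CPM added to each value. In LSK WT, 9 of 26 genes of the set differed by more than 2-fold (34.6%, against 31.0% of 10548 genes): Elovl6, Fasn, Hsd17b7, Insig1, Lss, Mvd, Pmvk, Sqle and Tm7sf2. In each of the other 5 groups 1 or 2 genes did, among them Hmgcs1 and Mvk in LSK KO, Hsd17b7 and Lss in MPP KO, and Insig1 in MPP Mut and MPP WT. The direction was not shared: in LSK WT, Lss had 562 and 20 counts in replicates 1 and 2 while Mvd had 2 and 737.

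**Figure D2:**
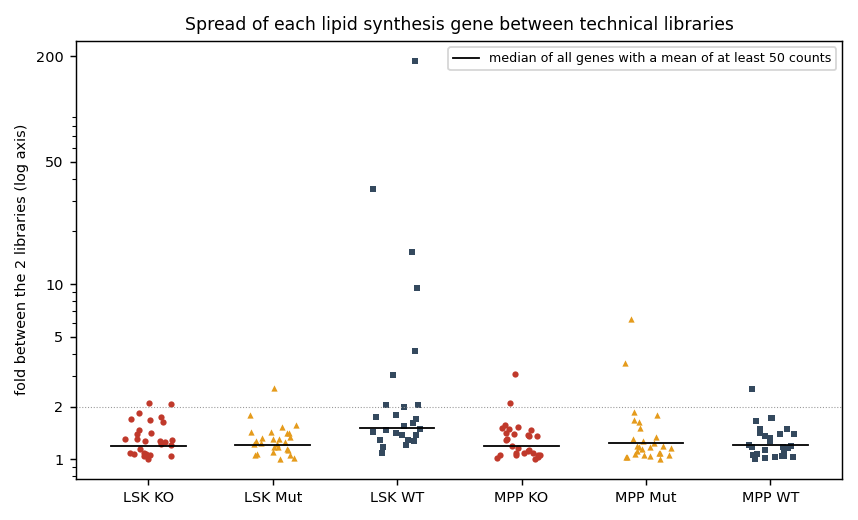
Fold difference between the 2 libraries of a group (log axis), for each gene of the set averaging at least 50 counts there, with a line at the median of all genes that pass the same minimum. LSK WT holds 9 genes above 2-fold and the largest differences, those of Mvd and Lss.

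In LSK cells, none of the 27 genes tested passed an adjusted p of 0.05 (edgeR's quasi-likelihood test with Benjamini-Hochberg adjustment over all genes) in KO against WT, in Mut against WT or in KO against Mut. Of all genes tested, 0.0456%, 1.28% and 0.0607% passed in the same 3 comparisons. DESeq2 called Acly in KO against WT, Acly and Mvk in Mut against WT, each higher, and no gene of the set in KO against Mut; it called 5.33%, 11.5% and 3.19% of all genes in these comparisons. At an unadjusted p of 0.05, edgeR gave 4 genes higher and 0 lower in KO against WT (8.03% of all genes were higher and 5.72% lower), 4 higher and 0 lower in Mut against WT (10.2% and 8.89% of all genes), and none in KO against Mut (2.62% and 1.62%). Both KO libraries were above both WT libraries for 9 of 27 genes and below them for none; over all genes 25.0% were above and 18.0% below. Mut libraries were wholly above WT for 11 genes and wholly below for Stard4 alone, against 26.8% and 20.3% of all genes. The median log2 difference was 0.18 in KO against WT and 0.20 in Mut against WT over the set, and 0 and 0.01 over all genes tested.

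Acly had the smallest p-values of the set in LSK cells. Its log2 difference was 0.98 ± 0.23 (SE) in KO against WT and 0.96 ± 0.23 in Mut against WT, with edgeR adjusted p-values of 0.21 and 0.0934, and both KO and both Mut libraries were above both WT libraries. Mvk had log2 differences of 1.73 ± 0.62 in KO and 2.19 ± 0.63 in Mut against WT (edgeR adjusted p = 0.307 and 0.136). The other genes named by size were Hsd17b7, at 1.38 in KO and 1.44 in Mut, Dhcr7, at 1.20 in KO, and Msmo1, at 1.19 in Mut. Fdft1 (KO, 1.18) and Ebp (Mut, 0.74) also had unadjusted p-values below 0.05. KO and Mut share the same WT libraries in these values, so their likeness is not independent. KO against Mut, which leaves the WT libraries out, gave Msmo1 -1.01 ± 0.49, Stard4 0.60 ± 0.32 and Idi1 -0.70 ± 0.89 on the log2 scale, none of them called, and Stard4 at -0.0095 under scaling to spike-ins. In this comparison 3 genes were wholly above and 3 wholly below Mut, against 21.7% and 21.5% of all genes. The LSK groups also differed in measures of the libraries. Rn45s, the ribosomal RNA precursor, took 2.47% and 2.51% of gene counts in LSK KO and 0.982% and 1.10% in LSK Mut, against 3.65% and 3.70% in LSK WT. Genes with a count numbered 14264 and 13970 in LSK KO and 13561 and 14213 in LSK Mut, against 12470 and 12614 in LSK WT. The 16 cell cycle genes summed to 4012 and 4615 CPM on average in LSK KO and Mut, against 3683 CPM in LSK WT, and of these Aurkb (log2 1.65, edgeR adjusted p = 0.0292) and Mcm2 (log2 0.96, adjusted p = 0.0368) were called higher in Mut against WT. The part of these shifts in the Acly and Mvk values was not tested.

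Leaving out either LSK WT library changed the calls, over all genes as in the set. In KO against WT, 10.5% of all genes were called without LSK WT replicate 1 and 12.0% without replicate 2, and in Mut against WT 17.3% and 18.7%, so the members' counts below are read against these shares. Without LSK WT replicate 1, 6 genes were called in KO against WT: Mvd (-2.82) and Fasn (-0.91) lower, and Lss (4.09), Tm7sf2, Insig1 and Acly (1.25) higher. Without LSK WT replicate 2, 4 genes were called, all higher: Mvd (5.26), Mvk, Srebf2 and Acly (0.75). Mvd was thus called in opposite directions, and Acly higher both times. Mut against WT gave 8 calls without LSK WT replicate 1 and 8 without replicate 2, and of these Mvd (-2.56 and 5.52) and Lss (3.69 and -1.50) turned round while Acly did not (1.24 and 0.74). The set's counts, 6 and 4 of 27 in KO and 8 and 8 in Mut, differ from what these shares of 27 genes would give by few genes, and nothing particular to the set is read from them. In these fits the remaining WT library is assumed to vary like the other groups.

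**Figure D3:**
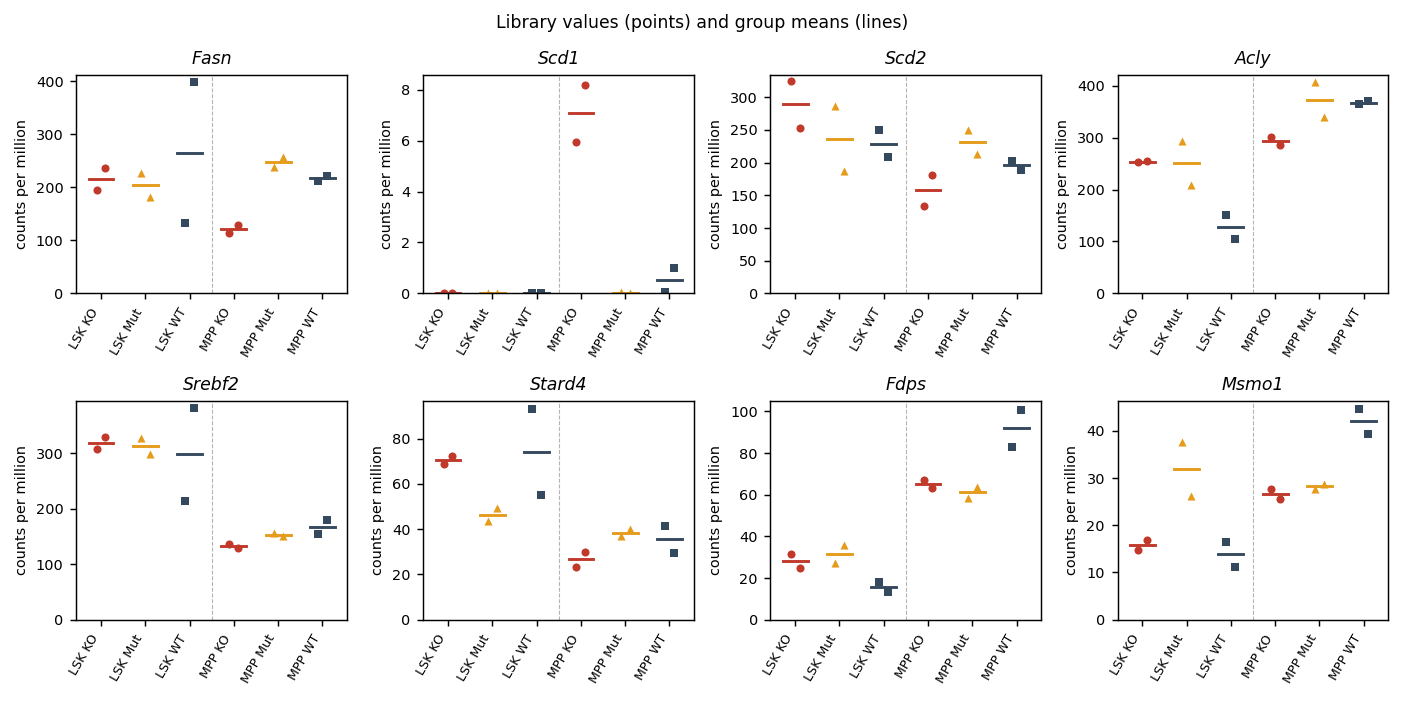
CPM of Fasn, Scd1, Scd2, Acly, Srebf2, Stard4, Fdps and Msmo1 in each library of the 6 groups, with a line at each group mean. Fasn in the libraries labelled MPP KO lies below both other MPP groups, Scd1 has its highest values in the libraries labelled MPP KO, and the pair of LSK WT points is widest apart for Fasn.

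In MPP cells, the only gene of the set called between genotypes was Fasn, of the fatty acid branch. Fasn (chr11:120805846-120824547, minus strand, GRCm38) had 114 and 129 CPM in the libraries labelled MPP KO, against 239 and 257 CPM in MPP Mut and 212 and 222 CPM in MPP WT. Both KO libraries were below all 4 others. Fasn fell 1.79-fold against WT (log2 -0.84 ± 0.12 SE, edgeR adjusted p = 0.0394) and 2.04-fold against Mut (log2 -1.03 ± 0.12 SE, edgeR adjusted p = 0.016). It was the only gene called of 28 in each comparison; of all genes tested, 0.363% were called in KO against WT (0.147% lower) and 0.239% in KO against Mut (0.154% lower). The call against WT did not hold without any 1 of the 6 MPP libraries (edgeR adjusted p from 0.0668 to 0.288), while its log2 difference stayed between -0.93 and -0.75; and the call against Mut did not hold without MPP KO replicate 1 (0.185) or 2 (0.0962) or MPP Mut replicate 1 (0.0904) or 2 (0.114), with log2 differences from -1.12 to -0.94. Scaling to the spike-ins gave -0.77 against WT (adjusted p 0.226) and -0.38 against Mut (0.131). In a model of all 12 libraries the log2 differences were -0.84 ± 0.37 (SE) against WT and -1.03 ± 0.37 against Mut. Neither was called there (edgeR adjusted p = 0.981 and 0.683). DESeq2 called Fasn in both comparisons, with an adjusted p of 1.23e-06 against WT; it called 2.14% of all genes against WT and 2.34% against Mut.

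Scd1 (chr19:44394455-44407879, minus strand, GRCm38), the paralogue of Scd2 best known from liver and fat, was counted 81 and 105 times in the libraries labelled MPP KO (5.96 and 8.19 CPM), 1 and 0 times in MPP Mut and 1 and 10 times in MPP WT, and 0 times in each of the 6 LSK libraries. The counts in MPP KO exceeded those in MPP Mut by a ratio of 263.7 after scaling to library size (95% exact interval 46.7 to 10470, for counting error only). Scd1 was at least 75.2-fold lower in LSK KO than in the libraries labelled MPP KO, taking 3 counts over the LSK KO group as the most a count of 0 allows. On the spread between libraries, the fitted values were log2 3.75 ± 1.53 against WT (edgeR adjusted p = 0.556) and an edgeR adjusted p of 0.249 against Mut; neither was called, and DESeq2 called the second. Scd1 passed the filter on low counts only through the libraries labelled MPP KO, so these fitted values are a description. Scd1 and Scd2 are close in sequence, and whether the counting could split reads between them was not tested. The 7 adipocyte and stroma markers summed to 22.8, 6.45 and 12.5 CPM in MPP KO, Mut and WT. Adipoq, Plin1 and Col1a1 were at 0 in both MPP KO libraries, Adipoq, Plin1 and Lepr in both MPP Mut libraries, and Adipoq, Plin1, Lepr, Cxcl12 and Col1a1 in both MPP WT libraries. The part of these markers in the Scd1 values was not tested.

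Scd2 had 134 and 181 CPM in the libraries labelled MPP KO, against 249.6 and 213 CPM in MPP Mut and 203 and 189 CPM in MPP WT, with log2 differences of -0.56 ± 0.17 against Mut and -0.32 ± 0.17 against WT. Acly stood -0.33 (log2) from WT and -0.35 from Mut. Neither passed the adjusted threshold in either comparison, and under scaling to spike-ins the values against Mut turned positive (Scd2 0.10, Acly 0.30). Of the sterol genes, Fdps (-0.50), Msmo1 (-0.66) and Tm7sf2 (-1.02), with the regulator Srebf2 (-0.33), had unadjusted p-values below 0.05 in MPP KO against WT, and none passed after adjustment. In that comparison 6 genes were lower and 1 (Scd1) higher at an unadjusted p of 0.05, against 4.64% and 3.83% of all genes. Idi1, which had 7.73 and 8.19 CPM in KO against 5.60 and 4.40 CPM in WT, was the other gene of the set wholly above WT, and 10 were wholly below, against 19.9% and 20.1% of all genes. Against Mut, 3 genes, Scd1 among them, were wholly above and 11 wholly below, against 20.3% and 19.9% of all genes. In KO against Mut, Sc5d (-0.86 ± 0.35) and Tm7sf2 (-0.59 ± 0.43) were the largest fitted differences after Fasn among genes with 100 counts or more whose libraries did not overlap. At an unadjusted p of 0.05, 1 gene (Scd1) was higher and 4 lower there, against 4.25% and 5.24% of all genes. Scd1 passed the filter on low counts only through the libraries labelled MPP KO, so its place in the counts against WT and Mut is not read as support. The median log2 difference over the 28 genes was -0.12 in KO against WT and -0.18 in KO against Mut, and over all genes tested -0.01 and 0. Under scaling to spike-ins, the median over all genes stood at 0.05 and 0.65 in these comparisons.

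In MPP Mut against WT, edgeR called none of 28 genes, against 0.224% of all genes, and DESeq2 called none either, against 2.32% of all genes. At an unadjusted p of 0.05 edgeR gave 1 higher, Sqle at 0.72 ± 0.31, and 2 lower, Fdps at -0.59 ± 0.19 and Dhcr7 at -0.88 ± 0.34, on the log2 scale, against 4.94% and 4.80% of all genes. Lss (1.04 ± 0.50) and Sc5d (0.74 ± 0.35) were named by size. Libraries did not overlap for 8 genes above and 6 below WT, against 19.8% and 19.4% of all genes. Scd1, with 1 and 0 counts in Mut and 1 and 10 in WT, is among those below and is not read as support.

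The MPP groups also differed in markers of other cells. Neutrophil markers summed to 2301, 1092 and 2108 CPM in MPP KO, Mut and WT, and S100a8, S100a9 and Camp were called higher in KO against Mut. Erythroblast markers summed to 485, 349 and 149 CPM in MPP KO, Mut and WT, with Alas2 and Slc4a1 among those called higher in KO against WT and the 4 globin rows at 0. Stem and progenitor markers summed to 829, 1154 and 978 CPM in the same groups, and cell cycle genes to 7010, 6354 and 6111 CPM. The part of these shifts in the Fasn, Scd1 and Scd2 values was not tested.

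**Figure D4:**
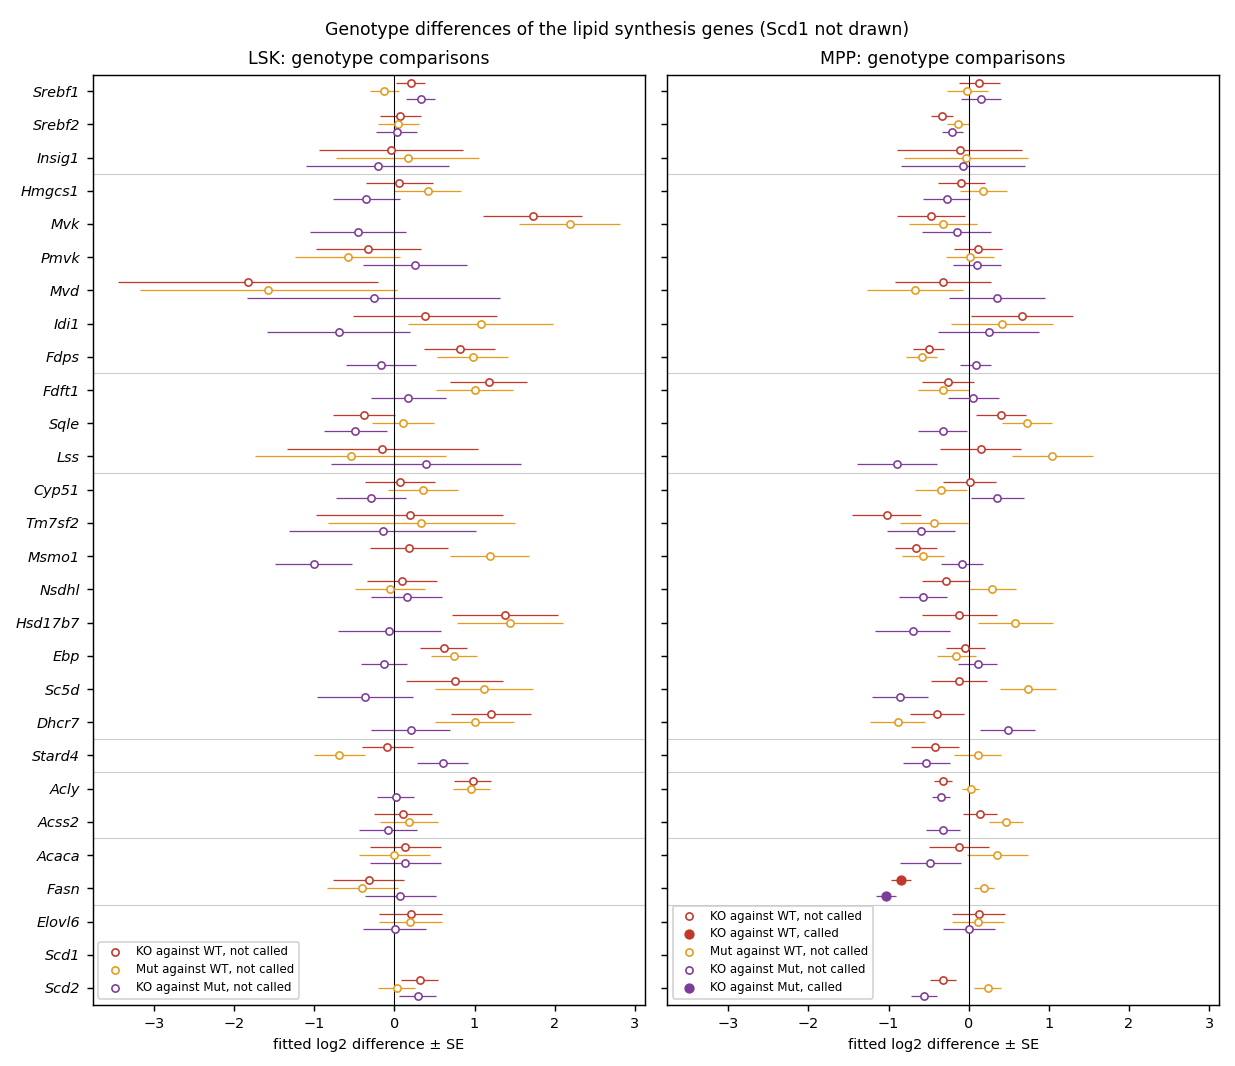
Fitted log2 differences with their SE for KO against WT, Mut against WT and KO against Mut, in LSK and MPP cells, with filled points for calls at an edgeR adjusted p below 0.05. Fasn in MPP KO against WT (-0.84) and against Mut (-1.03) holds the only filled points, and Scd1 is not drawn.

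Whether a genotype difference was itself different in LSK and MPP cells was tested in a model of all 12 libraries. None of 28 genes passed for KO against WT, Mut against WT or KO against Mut, against 0.727%, 2.53% and 0.0641% of all genes. DESeq2 called Acly and Fdps for KO and Acly, Dhcr7, Fdps, Msmo1 and Mvk for Mut, and none for KO against Mut, against its own 5.0%, 9.49% and 1.09% of all genes. At an unadjusted p of 0.05, edgeR gave 5, 7 and 2 genes with a positive value, meaning a difference higher in LSK than in MPP, against 7.95%, 10.2% and 3.76% of all genes. No gene of the set had a negative value at that p. The share of all genes with a negative value is not given here, so nothing is read from the shared sign. Acly came nearest for KO against WT, at 1.32 ± 0.27 (SE, edgeR adjusted p = 0.0582): its libraries labelled KO were above WT in LSK cells and below WT in MPP cells. Fdps came nearest for Mut against WT, at 1.58 ± 0.40 (edgeR adjusted p = 0.0654), with the same arrangement. Mvk (2.22 for KO, 2.52 for Mut), Dhcr7 (1.62 and 1.90) and Fdft1 (1.45 and 1.34) were positive for both. Of these, Fdft1 is named for its unadjusted p. The rule of size also named Hsd17b7 for KO and Msmo1 for Mut, neither called by edgeR. The KO and Mut comparisons with WT both use the LSK WT libraries. For KO against Mut, Stard4 (1.13 ± 0.44), Scd2 (0.85 ± 0.32) and Fasn (1.10 ± 0.52) had positive values under scaling to gene counts, and all 3 became negative under scaling to spike-ins. Lss, also named by size, had the highest value of the set there (1.29), was not called, and did not change direction under scaling to spike-ins.

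Between the populations, Srebf2 was called higher in LSK cells in all 3 genotypes, and Stard4 in KO and WT. Scd1 aside, the enzymes called lower in LSK were Fdps in KO and Fdps, Acly, Msmo1 and Fdft1 in WT, with none in Mut. The enzyme Scd2 was called higher in LSK in KO. These calls were close to or below the shares of all genes, which are given below. Srebf2 was higher in LSK than in MPP in all 3 genotypes, by 2.39-fold in KO, 2.04-fold in Mut and 1.78-fold in WT (log2 1.26 ± 0.22, 1.03 ± 0.22 and 0.83 ± 0.22, edgeR adjusted p = 0.00309, 0.0141 and 0.0176). Fdps fell in LSK against MPP in KO (log2 -1.21 ± 0.28, adjusted p = 0.0154) and in WT (log2 -2.54 ± 0.30, adjusted p = 0.000136); in Mut it was -0.96 ± 0.28. These directions hold for scaling to gene counts. Under scaling to the spike-ins, which put the median log2 value over all genes at 4.66 in KO, 5.88 in Mut and 4.17 in WT, 27 of the 28 genes were called higher in LSK in each genotype, Fdps among them, so each value here is a level relative to the other genes of its library.

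In KO, 3 genes were called higher in LSK (Srebf2, Stard4 and Scd2) and Fdps lower, against 15.2% of all genes (7.03% higher and 8.14% lower). Scd1 also passed in KO, but it was kept by the filter on low counts only through the libraries labelled MPP KO, so it is not counted here. In Mut, Srebf2 was the only call, against 8.76% of all genes (3.55% higher and 5.21% lower). In WT, 2 were called higher (Srebf2 and Stard4) and 4 lower (Fdps, Acly, Msmo1 and Fdft1), against 24.0% of all genes (10.2% higher and 13.7% lower). LSK libraries lay wholly above MPP libraries for 8, 8 and 5 of 28 genes in KO, Mut and WT, and wholly below for 9, 9 and 13. Scd1 is among the genes wholly below in KO and in WT, and its place in these counts is not read as support. Over all genes 34.3% lay wholly above and 30.7% wholly below in KO, 29.9% and 27.6% in Mut, and 26.1% and 30.7% in WT. The calls, 4, 1 and 6 of 28, are thus close to the shares of all genes, or in Mut below them.

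Stard4 was higher in LSK by log2 1.40 ± 0.32 in KO (edgeR adjusted p = 0.013) and 1.06 ± 0.31 in WT (0.0312), and stood at 0.27 ± 0.31 in Mut. Scd2 was called in KO, at 0.88 ± 0.22 (0.0237). In WT, Acly was lower in LSK (log2 -1.53 ± 0.19, 0.000251), as were Msmo1 (log2 -1.60 ± 0.37, 0.00949) and Fdft1 (log2 -1.30 ± 0.40, 0.0355). In Mut, the rule of size also named Nsdhl at -1.14 ± 0.37 and Mvk at 1.01 ± 0.54, neither called. Whether these population differences differ by genotype is the interaction above, in which no gene passed.

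Calls for Srebf2 in KO and for Fdps and Acly in WT held with any 1 of the 12 libraries left out. Others did not: Srebf2 in WT was not called without LSK WT replicate 2 (log2 0.35, adjusted p 0.0995) or MPP WT replicate 1 (0.115), and Srebf2 in Mut without LSK Mut replicate 1 (0.0843) or MPP Mut replicate 1 or 2 (0.0768 and 0.0909). Msmo1 in WT was not called without MPP WT replicate 1 (0.0606). Stard4 and Fdps in KO were not called without any 1 of the 4 KO libraries, and Scd2 in KO without replicate 1 of LSK KO (0.173) or of MPP KO (0.184). Stard4 in WT was not called without LSK WT replicate 1 (log2 0.63, adjusted p 0.159), MPP WT replicate 1 (0.0568) or 2 (0.204), or LSK KO replicate 1 or 2 (0.0541 and 0.0553). Fdft1 in WT kept its call only without LSK WT replicate 2 or MPP Mut replicate 2, and reached 0.21 without MPP WT replicate 2.

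The populations differed in proliferation and lineage markers as well. Cell cycle genes summed to 4012, 4615 and 3683 CPM in LSK KO, Mut and WT and to 7010, 6354 and 6111 CPM in MPP KO, Mut and WT; neutrophil markers stood far higher in MPP, as given above. Their part in the Srebf2, Stard4 and Fdps values was not tested.

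**Figure D5:**
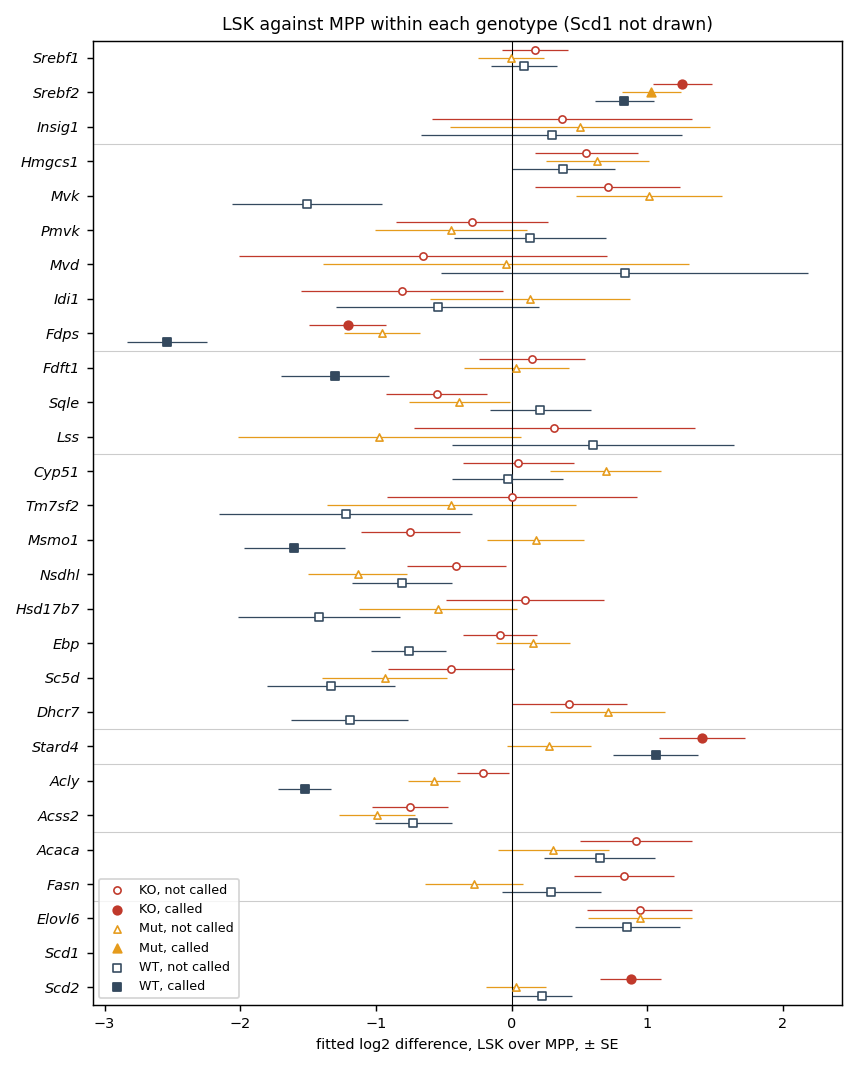
Log2 difference of LSK over MPP with its SE for each gene, in KO, Mut and WT, under scaling to gene counts, with filled points for calls at an edgeR adjusted p below 0.05. Srebf2 is filled and positive in all 3 genotypes, Fdps is negative in all 3 and filled in KO and WT, and Scd1 is not drawn.

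Genes of the same pathways outside the set were counted in 5 lists. None of 7 tested further sterol genes, 9 SREBP processing genes, 15 genes of sterol sensing, efflux and storage, or 17 to 18 further fatty acid genes was called by edgeR between genotypes in either population. At an unadjusted p of 0.05, each of these lists had at most 3 genes higher and 3 lower in a genotype comparison, and DESeq2 was not used for them. Of 10 genes of isoprenoid branches, Rabggtb, a subunit of the transferase that prenylates Rab proteins, fell in LSK Mut against WT (log2 -1.38, edgeR adjusted p = 0.0307). Between populations, Abcg1, a sterol exporter, and Vldlr, a lipoprotein receptor, were called higher in LSK in all 3 genotypes. Lbr and Tmem97 (sterol list), Sec24d (SREBP transport) and Acsl1 and Acsl5, which activate fatty acids, were called lower in LSK in all 3. The list that holds Abcg1 and Vldlr was mixed: in KO, Mut and WT, 2, 2 and 3 of its 15 genes were called higher and 2, 0 and 2 lower. Its lower calls were Scarb1 and Soat1, in KO and WT. Further fatty acid genes gave 5, 3 and 6 lower calls of 18 tested, and further sterol genes 2, 2 and 3 of 7, with 1 higher in WT. Of all genes, 8.14%, 5.21% and 13.7% were called lower in KO, Mut and WT, and 7.03%, 3.55% and 10.2% higher. These directions too hold for scaling to gene counts.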

How the data were processed

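Per the labels' protocols, RNA of sorted cells was amplified and barcoded with ERCC spike-ins. The submitters' processing notes name Trim Galore 0.4.1, TopHat2 2.0.13, HTSeq 0.6.1, Cufflinks and the build mm10; strand use is not given in the sources used here, so antisense partners cannot be told apart. The deposited values are raw counts per gene, as the files show (whole numbers with differing totals). The column taken as MPP KO replicate 2 is numbered differently from its sample title and was matched by population, genotype and replicate.
Spike-ins were left out of library sizes. Genes were kept by edgeR's filterByExpr (minimum count 10, minimum total 15), scaled by TMM and tested with edgeR 4.0.16 (quasi-likelihood, R 4.3.3), with Benjamini-Hochberg adjustment over all genes tested: 13170 in LSK and 12947 in MPP, each in a model of 6 libraries, and 14033 in a model of 12. Calls are adjusted p-values below 0.05. Each SE of an edgeR log2 difference is its absolute value divided by the square root of the F statistic of its test, so it restates that test. CPM use the TMM sizes of 12 libraries. DESeq2 1.42.0 was an alternative. An exact permutation test of 2 against 2 libraries cannot go below p = 0.333. Floors and intervals cover counting error only. Gene lengths and positions come from the GRCm38 annotation.
The genes and lists were chosen with earlier results of these data known. Some genes of the lists are not reported by name here. Named in each comparison were the called genes and, with fewer than 3 called, those of largest difference without overlap (not required for interactions) and at least 100 counts, up to 3. Genes named for an unadjusted p, and Scd1 in MPP, were added after their values were seen.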

Additional observations from a re-analysis of the deposited data

How the results depend on the processing

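Counts of called genes of the set moved with the processing, as did the share of all genes called, and the cause was not tested. The counts below include Scd1 wherever it passed, while the count above for LSK against MPP in KO leaves it out. Among these are the fit of only the 4 libraries in that comparison and the DESeq2 test of MPP KO against Mut. Scd1 was kept by the filter on low counts only through the libraries labelled MPP KO, so no count that includes it is read as support. With DESeq2 the counts were 1 in LSK KO against WT, 2 in LSK Mut against WT, 2 in MPP KO against Mut, 2 and 5 in the KO and Mut interactions (LSK minus MPP), and 5 and 11 in LSK against MPP in Mut and WT; of all genes it called 5.33%, 11.5%, 2.34%, 5.0%, 9.49%, 17.4% and 36.4% in these comparisons. Scaling to the spike-ins gave 8 in LSK Mut against WT, 0 in MPP KO against WT, 5 (all lower) in MPP Mut against WT, 3 in MPP KO against Mut, 13 in the Mut interaction and 27 in LSK against MPP in each genotype, against 22.8%, 0.116%, 17.7%, 25.1%, 38.7% and 82.3% to 89.6% of all genes. With no filter on low counts there were 1 in LSK Mut against WT, 2 in MPP KO against Mut, 1 in each of the KO and Mut interactions and 3 in LSK against MPP in Mut. Of all genes, 2.97%, 1.23%, 1.64%, 3.89% and 10.1% were called in these comparisons. A model of all 12 libraries gave 1 and 2 in LSK KO and Mut against WT and 0 in MPP KO against WT and against Mut, against 1.94%, 6.76%, 0.107% and 0.0998% of all genes. With only the 4 libraries compared there were 0 in those MPP comparisons, and 8, 3 and 2 in LSK against MPP in KO, Mut and WT. The shares of all genes were 0.208% and 0.168% in the MPP comparisons and 27.2%, 13.2% and 7.75% in LSK against MPP. Size factors from DESeq2 changed no count by more than 1.5 times.
The replicate numbers do not pair the libraries: same-numbered libraries correlated at -0.0847 to 0.0531 in their deviations from group means. A replicate block gave 0 in MPP KO against WT (Fasn adjusted p 0.0757), and 2, 0 and 3 in LSK against MPP in KO, Mut and WT. With that block, 0.178%, 8.64%, 4.45% and 16.3% of all genes were called in these comparisons. In LSK against MPP, Srebf2 kept its call with the block in KO (edgeR adjusted p = 0.0223) and lost it in Mut (0.0732) and WT (0.109). Stard4 lost its call in KO (0.0576) and WT (0.0795). With only the 4 WT libraries compared, edgeR called neither Srebf2 (0.152) nor Stard4 (0.170).
Leaving out 1 library gave 0 to 6 calls in LSK KO against WT (0.00% to 12.0% of all genes), 0 to 8 in LSK Mut against WT (0.0360% to 18.7%), 0 to 0 in LSK KO against Mut, MPP KO against WT and MPP Mut against WT, 0 to 1 in MPP KO against Mut, 0 to 4, 0 to 5 and 0 to 0 in the KO, Mut and KO against Mut interactions (up to 6.07%, 9.58% and 0.262% of all genes), and 1 to 8, 0 to 6 and 2 to 11 in LSK against MPP in KO, Mut and WT (up to 22.4%, 15.4% and 28.2%).
Of single-gene values, 815 kept direction and call, 55 gained a call, 71 lost it and 13 reversed, all 13 under spike-in scaling. These were Stard4 at -0.0095 in LSK KO against Mut; Tm7sf2 at 0.056, Acly at 0.30 and Scd2 at 0.10 in MPP KO against Mut; Stard4 at -0.14, Fasn at -0.091 and Scd2 at -0.33 in the KO against Mut interaction; Fdps at 3.40 in KO and Nsdhl at 4.71 in Mut for LSK against MPP; and Acly at 2.64, Fdft1 at 2.90, Fdps at 1.62 and Msmo1 at 2.57 in WT. With 2 technical libraries a group, differences between mice were not measured.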
